A study of Mus musculus with 3 samples.

Results

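Hmox1, the transcription factor NRF2 (gene symbol Nfe2l2), its repressor Keap1 and 7 further NRF2 target genes were followed through sham operation, warm ischemia and reperfusion of the mouse liver. The 10 genes were chosen by name from general knowledge of the pathway and with earlier results of these same data in view, so the FPKM values that drew attention to them are described here without a test. All 10 were found by symbol among the 23361 genes of the files. The libraries came from livers of C57BL/6J mice labelled male and 8 to 10 weeks old, with 1 library per group. The Sham group had a laparotomy without clamping, with liver collected 90 min later. The WI (warm ischemia) group had the vessels to the left and median lobes clamped for 90 min, and the IR (ischemia followed by reperfusion) group had the same 90 min of clamping and then 2 h with the clamp removed. All mice were fasted and anesthetised with chloral hydrate, and pooling of RNA from several mice is neither stated nor denied in the sources used here. No sham group was matched to the IR group in time, so reperfusion and the added hours after surgery cannot be told apart.

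NRF2 is a transcription factor that KEAP1 normally binds and hands over for degradation. Oxidants and electrophiles modify cysteines of KEAP1, after which NRF2 accumulates, pairs with a small MAF protein and binds antioxidant response elements (ARE) in DNA. Its targets make glutathione, regenerate thioredoxin and peroxiredoxin, reduce quinones and break down heme. Hmox1 encodes heme oxygenase 1, which opens the heme ring and releases iron, carbon monoxide and biliverdin, and it is also held down by the repressor BACH1, which heme removes from DNA. In the liver the NRF2 program is known above all from drug and oxidant stress in hepatocytes, while Hmox1 is strong in macrophages that take up red cells.

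Levels are FPKM, by name the fragments counted on a gene, scaled to its transcript length and to the mapped fragments of the library. Whether the deposited values were also scaled between libraries is not stated in the sources used here and was not tested. Rescaling by the median ratio of genes between libraries needed factors of only 1.004 in Sham, 1.001 in WI and 0.997 in IR. Rescaling to a common sum needed 1.174, 1.145 and 0.784 in the same order. The deposited 95% bounds come from the count model of Cuffdiff, run with 1 library per group. Besides counting error they hold a spread set by that model, and how it was set is not given in the sources used here. Variation between mice of a group was not measured, so no difference below has a replicate check. Read as 2 SD on either side, they gave the median gene a coefficient of variation of 26.0% in every library. The depth on each gene is not listed, but the steps between very low FPKM values gave the worth of 1 fragment, which was 1.11 times as high in the Sham library as in the WI library and 0.794 times as high as in the IR library. The labelled tissue was checked first. Ttr, a hepatocyte plasma protein, had an FPKM of 4241 in Sham, 4591 in WI and 5765 in IR, and Alb was listed at 0 in all 3 libraries with the status HIDATA, which Cuffdiff gives to loci with too many fragments to process.

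The Sham and WI libraries went against the labelled sex. Xist, the RNA that coats an inactive X chromosome, had an FPKM of 18.9 in Sham, 20.1 in WI and 1.29 in IR. The Y-linked gene Eif2s3y was listed at 0 in Sham and WI and stood at 13.2 in IR. WI and Sham were alike in this respect, whereas in both comparisons with IR the stage and this difference between the libraries cannot be told apart. None of the 10 genes lies on a sex chromosome, and no comparison with IR could be made without these libraries.

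Reference promoter sequence is shown for 3 of the genes because they differed in level between the stages to different degrees while each held an ARE core. The sequences are the 250 bases before the RefSeq transcription start in GRCm38.p6 (mm10), 5′ to 3′ on the strand of the gene. Srxn1 lies on the plus strand at chr2:152105274-152105523, Gclm on the plus strand at chr3:122245307-122245556 and Nfe2l2 on the minus strand at chr2:75704664-75704913. Capitals mark matches on either strand to the ARE core, searched as TGACNNNGC and, in a form added after the sequences were seen, as TGAGNNNGC, or to the AP-1 element TGACTCA.
Srxn1: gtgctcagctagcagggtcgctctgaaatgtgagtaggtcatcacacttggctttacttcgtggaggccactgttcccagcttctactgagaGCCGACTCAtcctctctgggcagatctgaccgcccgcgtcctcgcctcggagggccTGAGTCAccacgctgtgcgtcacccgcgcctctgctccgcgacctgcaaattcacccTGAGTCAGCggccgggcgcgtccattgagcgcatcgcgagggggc
Gclm: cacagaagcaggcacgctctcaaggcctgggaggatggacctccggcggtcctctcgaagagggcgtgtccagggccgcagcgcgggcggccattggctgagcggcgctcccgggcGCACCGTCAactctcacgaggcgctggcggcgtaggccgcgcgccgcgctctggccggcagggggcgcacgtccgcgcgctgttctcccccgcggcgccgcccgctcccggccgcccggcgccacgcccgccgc
Nfe2l2: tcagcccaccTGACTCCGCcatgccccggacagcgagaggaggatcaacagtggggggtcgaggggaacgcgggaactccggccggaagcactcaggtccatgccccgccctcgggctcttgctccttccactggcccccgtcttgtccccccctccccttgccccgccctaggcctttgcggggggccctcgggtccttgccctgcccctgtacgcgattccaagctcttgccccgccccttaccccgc

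RefSeq windows of 250 bases before and 50 after the start were given for 7 of the 10 genes, 9 windows in all because Txnrd1 has 3 starts. No window was given for Hmox1, Gclc and Gsr. The Srxn1 window held the G form of the ARE core on both strands, with first bases 158 and 45 bases before the start, a C form 29 bases after it, and AP-1 elements 102 and 45 bases before it. The match nearest before the start is shared by both motifs, since TGAGTCAGC holds the AP-1 letters on the opposite strand. The C form was also found 134 bases before the start of Gclm, 240 bases before that of Nfe2l2 and 92 bases before 1 of the Txnrd1 starts, and the G form 97 bases before the start of Slc7a11. Of all 32851 windows in the table, 12.4% held the C form, 17.6% the G form and 5.20% the AP-1 element. A heat shock element (GAA, TTC and GAA, each 2 bases apart) was in 0.603% of all windows and in no window of these genes. These matches describe letters in a short window and say nothing about binding.

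Hmox1 was the gene of the 10 with the largest difference in log2(FPKM + 1) between the libraries. It lies on chromosome 8 of mm10 from 75093618 to 75100593. Its FPKM was 22.6 in Sham (95% bounds 12.2 to 33.1), 18.1 in WI (9.68 to 26.5) and 279.8 in IR (120.1 to 439.6). Sham and WI overlapped widely, and the lower bound in IR lay above both. The level in IR was 15.5 times that in WI, with a 95% interval of 7.51 to 31.8 from the deposited bounds, and 12.4 times that in Sham (6.01 to 25.4). On the scale of log2(FPKM + 1), on which all differences below are given, IR minus WI was 3.88 with an SE of 0.52 from the bounds, which placed Hmox1 at rank 42 from the top among the 10792 genes that reached an FPKM of 1 in some library. Between WI and Sham its difference was -0.31 (SE 0.45). Hmox1 was the only gene of the 10 that was lower in WI than in Sham, by an amount within the error of the bounds.

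**Figure D1:**
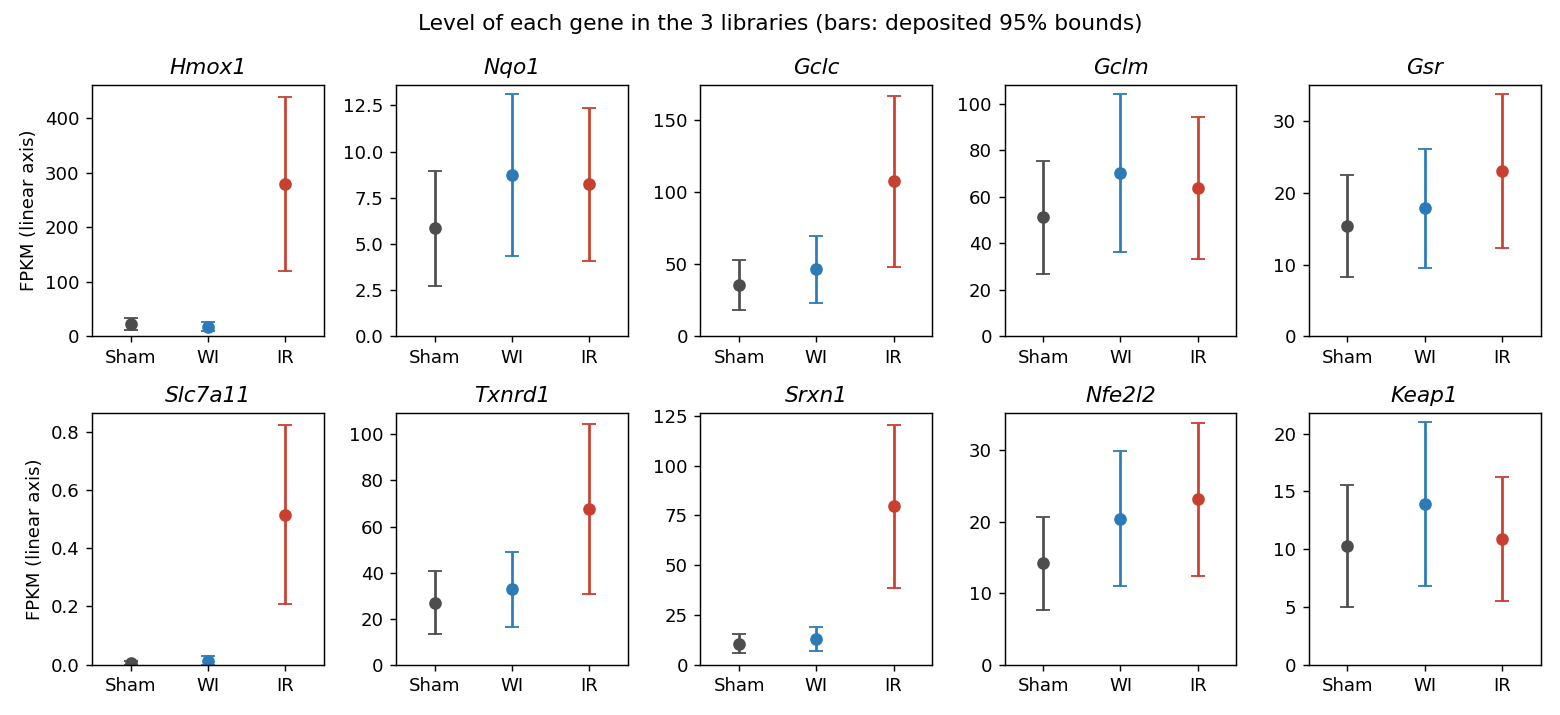
FPKM of each of the 10 genes (linear axes that start at 0) in the Sham, WI and IR libraries, with 1 library per group and bars for the deposited 95% bounds. The lower bound in IR lies above the bounds of Sham and WI for Hmox1, Srxn1 and Slc7a11, and the bars of the other 7 genes overlap.

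The next largest difference on that scale lay in the thioredoxin branch. Srxn1, which encodes sulfiredoxin and repairs over-oxidised peroxiredoxins, lies on chromosome 2 from 152105524 to 152111376. Its FPKM was 10.6 in Sham (5.65 to 15.5), 13.0 in WI (6.97 to 19.0) and 79.5 in IR (38.5 to 121). As for Hmox1, Sham and WI overlapped and IR stood apart from both. The IR level was 6.12 times the WI level (interval 3.10 to 12.1), a difference of 2.53 (SE 0.48). Txnrd1, the cytosolic thioredoxin reductase (chromosome 10, 82833951 to 82897724), stood at an FPKM of 27.0 in Sham (13.2 to 40.7), 32.8 in WI (16.4 to 49.1) and 67.7 in IR (30.7 to 105). Here the bounds of IR and WI overlapped, and the IR to WI ratio of 2.06 had an interval of 0.999 to 4.27. Txnrd1 thus lay just past 2-fold, with a difference of 1.02 (SE 0.52), and its RefSeq entry has several starts that the FPKM of the gene adds together.

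The catalytic and modifier subunits of glutamate-cysteine ligase, the rate-limiting enzyme of glutathione synthesis, fell on either side of the 2-fold line between IR and WI. Gclc, the catalytic subunit (chromosome 9, 77754535 to 77794489), stood at an FPKM of 35.7 in Sham (18.4 to 53.0), 46.6 in WI (23.5 to 69.7) and 108 in IR (48.3 to 167). Its IR level was 2.31 times that in WI (interval 1.12 to 4.78) and 3.02 times that in Sham (1.47 to 6.19), although the bounds of the libraries overlapped. Gclm, the modifier subunit (chromosome 3, 122245557 to 122267215), stood at an FPKM of 51.1 in Sham (26.9 to 75.3), 70.1 in WI (36.2 to 104.1) and 63.7 in IR (33.0 to 94.4). Gclm was highest in WI and all 3 libraries overlapped. For IR over WI its ratio of 0.908 had an interval of 0.465 to 1.77, which included no difference and ended below the ratio of Gclc, although the intervals of both genes overlapped and their difference was not tested. In Sham and in WI the level of Gclm was above that of Gclc, and in IR it was below, with overlapping bounds in each library.

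Slc7a11, the light chain of the transporter that brings in cystine for glutathione synthesis, was close to absent before reperfusion. Its FPKM on chromosome 3 from 50364936 to 50443613 was 0.00464 in Sham (0 to 0.0140), 0.0126 in WI (0 to 0.0284) and 0.515 in IR (0.207 to 0.823). It did not reach an FPKM of 1 in any library, so it stands outside the counts of genes past 2-fold below. If the Sham value is taken as 1 fragment, the WI value corresponds to 3.02 fragments and the IR value to 88.03, each within 0.03 of a whole number. The ratio of IR to WI was then 41.0, with an exact 95% interval of 13.6 to 203 that covers counting error only. On the log2 scale with a pseudocount of 1 the same difference was 0.58, since the pseudocount outweighs FPKM values this low. Slc3a2, the heavy chain with which Slc7a11 forms the transporter, had an FPKM of 15.7 in Sham, 14.3 in WI and 35.8 in IR, a difference of 1.27 between IR and WI.

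Gsr and Nqo1 stayed within 2-fold in every comparison. Gsr, which reduces oxidised glutathione, lies on chromosome 8 from 33653238 to 33698162 and stood at an FPKM of 15.4 in Sham (8.25 to 22.5), 17.8 in WI (9.59 to 26.1) and 23.0 in IR (12.3 to 33.8). Nqo1, the quinone reductase often used as a readout of NRF2 on chromosome 8 from 107388225 to 107403205, had 5.84 in Sham (2.75 to 8.93), 8.72 in WI (4.35 to 13.1) and 8.22 in IR (4.08 to 12.4). The bounds of all 3 libraries overlapped for both genes. The IR to WI ratio was 1.29 for Gsr (interval 0.679 to 2.46) and 0.943 for Nqo1 (0.470 to 1.89). The interval of Nqo1 lay below the ratios of Hmox1 and Srxn1.

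The mRNAs of the regulator and its repressor stayed within 2-fold as well. Nfe2l2 (chromosome 2, 75675519 to 75704641) stood at an FPKM of 14.2 in Sham (7.60 to 20.7), 20.4 in WI (11.0 to 29.9) and 23.1 in IR (12.4 to 33.9). Keap1 (chromosome 9, 21229730 to 21239332) stood at 10.2 in Sham (4.96 to 15.5), 13.9 in WI (6.80 to 21.0) and 10.9 in IR (5.53 to 16.2). Nfe2l2 was lowest in Sham and Keap1 was highest in WI, each with overlapping bounds throughout. The ratio of IR to Sham was 1.63 for Nfe2l2 (interval 0.858 to 3.11) and 1.06 for Keap1 (0.529 to 2.13). NRF2 is controlled mainly through the stability of the protein, which mRNA levels do not show.

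Levels of different genes can be compared on the FPKM scale because it is per length. In Sham the order ran from Gclm (51.1) through Gclc, Txnrd1, Hmox1, Gsr, Nfe2l2, Srxn1 and Keap1 to Nqo1 (5.84) and Slc7a11 (0.00464). In IR it ran from Hmox1 (279.8) through Gclc, Srxn1, Txnrd1, Gclm, Nfe2l2, Gsr and Keap1 to Nqo1 (8.22) and Slc7a11 (0.515). Hmox1 went from place 4 to place 1 and Srxn1 from place 7 to place 3. In both libraries, neighbours in this order overlapped in their bounds except Nqo1 and Slc7a11, so single steps in it are not resolved.

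Counted together, 9 of the 10 genes reached an FPKM of 1 in some library, the filter used here. Between WI and Sham none of these 9 was past 2-fold in either direction, where 0.751% of the 10792 genes were at least 2-fold higher and 1.10% at least 2-fold lower, and none had bounds apart, against 0.195% of all genes apart and higher. The median of the 9 was 0.38 beside 0.02 over all genes. The other 8 genes besides Hmox1 were higher in WI, by 0.20 to 0.51, where 52.5% of all genes were higher by any amount. Of these differences, those of Nqo1 (0.51, SE 0.46) and Nfe2l2 (0.50, SE 0.45) exceeded 1 SE from the bounds and the other 6 lay within it. Between IR and WI, 4 of the 9 were at least 2-fold higher (Hmox1, Srxn1, Gclc and Txnrd1), against 5.78% of all genes, and none was 2-fold lower, against 1.43%. Bounds lay apart and higher in IR for 2 of the 9, Hmox1 and Srxn1, against 3.22% of all genes. The median of the 9 was 0.35 beside 0.03 over all genes, and differences ran from -0.33 for Keap1 to 3.88 for Hmox1.

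The comparison of IR with Sham shares its libraries with the other 2 comparisons. The same 4 genes were at least 2-fold higher, against 5.35% of all genes, with differences of 3.57 for Hmox1, 2.80 for Srxn1, 1.57 for Gclc and 1.30 for Txnrd1. None was 2-fold lower, against 2.15%, and Hmox1 and Srxn1 again had bounds apart, against 2.70%. The median of the 9 was 0.67 beside 0.05 over all genes, and it lay at Nfe2l2. Since the genes were chosen with these results known, the shares of all genes are given as background and not as evidence about the pathway. Rescaling FPKM to a common sum moved the median of all genes between IR and WI to -0.41. Then 2 of the 9 genes were at least 2-fold higher (Hmox1 and Srxn1), against 2.94% of all genes. Gsr and Nfe2l2 changed sign to -0.17 and -0.35. Between IR and Sham the same rescaling turned Gclm, Keap1 and Nqo1 to -0.26, -0.45 and -0.08. The summed FPKM behind that setting was 475754 in Sham, 487912 in WI and 712423 in IR.

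**Figure D2:**
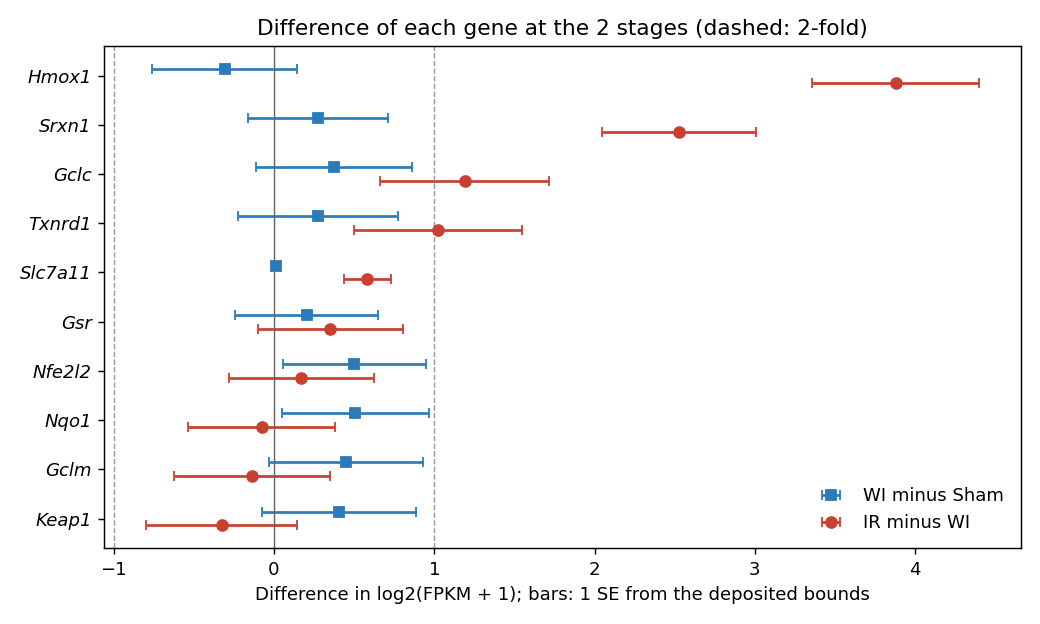
Difference in log2(FPKM + 1) of each of the 10 genes for WI minus Sham (squares) and IR minus WI (circles), with bars of 1 SE from the deposited bounds and dashed lines at 2-fold. All WI minus Sham differences lie inside the dashed lines, while Hmox1 (3.88), Srxn1 (2.53), Gclc (1.19) and Txnrd1 (1.02) lie past the line for IR minus WI.

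**Figure D3:**
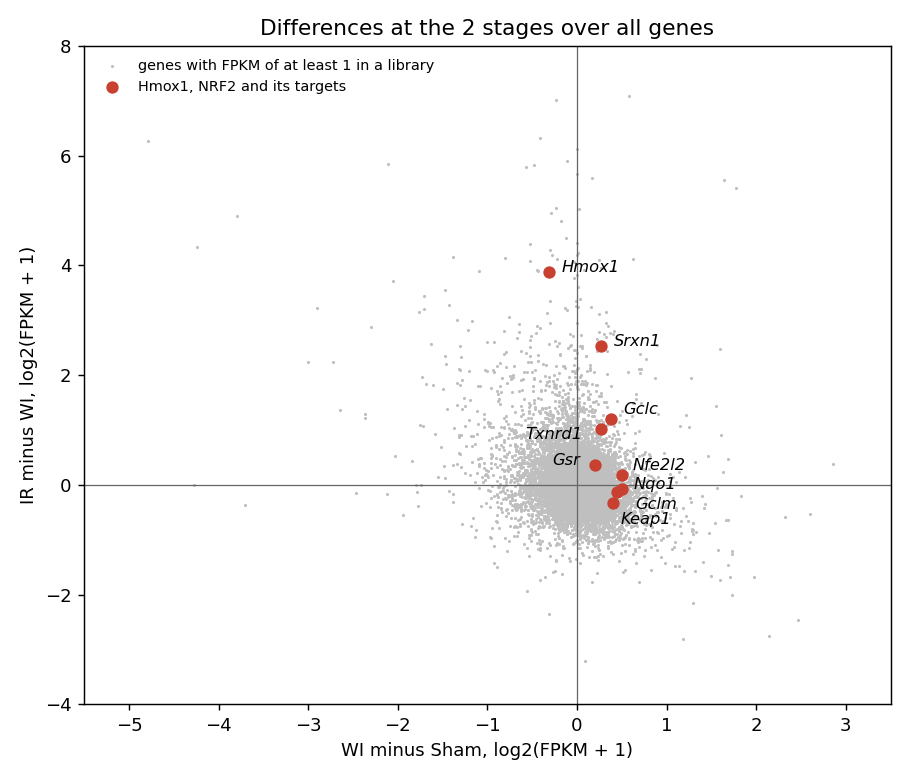
Difference in log2(FPKM + 1) for WI minus Sham (horizontal axis) and IR minus WI (vertical axis) for the 10792 genes that passed the filter (grey) and 9 of the 10 genes described here (red), with Slc7a11 left out by the filter. The WI library enters both axes, so genes low in that library alone lie in the upper left, and Hmox1 and Srxn1 lie high with little horizontal offset.

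The partners and repressors of NRF2 were described from a list of 9 genes, all of which passed the filter. The small MAF proteins, with which NRF2 must pair to bind DNA, did not move alike. Maff had an FPKM of 18.6 in Sham, 10.3 in WI and 59.9 in IR, and Mafk had 5.73, 5.05 and 19.1 in the same order. Both were past 2-fold between IR and WI, by 2.43 and 1.73, and their bounds lay apart. Mafg, the remaining member of the family, had 14.8, 17.5 and 12.5, with overlapping bounds. Sqstm1, the autophagy receptor p62 that binds KEAP1 and is itself an NRF2 target, went from an FPKM of 110.4 in Sham and 122 in WI to 535 in IR, a difference of 2.13 between IR and WI. Its bounds in IR (175.4 to 894.5) and in WI (57.8 to 185.9) overlapped. Bach1, the repressor of Hmox1, had 10.8, 9.54 and 18.0, a difference of 0.85 between IR and WI that stayed within 2-fold. The remaining members, including Cul3 and Rbx1 of the ubiquitin ligase that KEAP1 serves, lay between -0.20 and 0.16 in that comparison. In all, 3 of the 9 were at least 2-fold higher in IR than in WI, against 5.78% of all genes, and none was at least 2-fold lower, against 1.43%.

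Of 31 other NRF2 targets on a list written from general knowledge, 29 passed the filter. Most stayed within 2-fold between IR and WI, as did most of all genes. Between IR and WI, 1 was at least 2-fold higher, Slc3a2, against 5.78% of all genes, and 1 at least 2-fold lower, Abcc2, against 1.43%. Abcc2 exports conjugates into bile and had an FPKM of 94.3 in WI and 42.6 in IR. The other 27 lay within 2-fold, and the median of the 29 was 0.00 beside 0.03 over all genes. Among them, the enzymes of the pentose phosphate pathway stayed within 2-fold between IR and WI. The differences were 0.02 for Pgd and -0.20 for the X-linked G6pdx, which supply NADPH, and 0.39 for Taldo1 and 0.00 for Tkt of the branch that does not. For G6pdx the IR to WI ratio had an interval of 0.126 to 5.38, so its difference is not resolved. Between WI and Sham the glutathione transferases Gsta1 and Gsta2 were past 2-fold higher, by 2.60 and 1.42, against 0.751% of all genes. Their FPKM went from 1.25 and 19.5 in Sham to 12.6 and 53.6 in WI, and they belong to a cluster of near-identical neighbours on chromosome 9, so reads may have been split between copies and their single values are uncertain. Between IR and Sham, Gsta1 (2.06), Slc3a2 (1.14) and Gstm4 (1.01) were past 2-fold higher (5.35% of all genes) and Abcc2 (-1.02) lower (2.15%). This split of 3 higher and 1 lower turned to 1 higher and 3 lower with FPKM rescaled to a common sum. Fth1 and Ftl1, the ferritin subunits that store the iron released from heme, had differences of 0.58 and 0.65 between IR and WI, at FPKM levels of 2187 and 4211 in IR.

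Genes around Hmox1 in heme and iron handling were compared on a list of 18, all of which passed the filter. None was past 2-fold between IR and WI, where 5.78% of all genes were higher and 1.43% lower. The differences of the 18 ran from -0.92 to 0.47. Hmox2, the constitutive heme oxygenase, had an FPKM of 25.6 in Sham (0 to 51.3), 19.7 in WI (3.63 to 35.9) and 24.9 in IR (0 to 51.3). Hmox1 was below Hmox2 in Sham and WI, with values close together and overlapping bounds, so that order is not resolved. In IR Hmox1 was above Hmox2. The biliverdin reductases, which act on the product of heme oxygenase, stayed within 2-fold, with an FPKM of 92.3, 85.6 and 89.4 for Blvrb and of 9.81, 11.8 and 14.1 for Blvra, whose difference between IR and Sham was 0.48 (SE 0.47). Cd163, the macrophage receptor for hemoglobin bound to haptoglobin, stood at an FPKM of 16.2 in Sham, 4.02 in WI and 2.84 in IR, a difference of -1.78 between WI and Sham and of -2.16 between IR and Sham, both with bounds apart. Slc40a1, the iron exporter ferroportin, had an FPKM of 86.8 in Sham, 45.9 in WI and 28.6 in IR, also past 2-fold lower between IR and Sham (-1.57) but with overlapping bounds. A further list of antioxidant enzymes held 12 catalase, superoxide dismutase, glutathione peroxidase and peroxiredoxin genes. It had 0 genes past 2-fold in any of the 3 comparisons, with a median of 0.25 between IR and WI. Of all genes, 0.751% were at least 2-fold higher and 1.10% lower in WI against Sham, and 5.35% and 2.15% in IR against Sham. At such shares a count of 0 does not set a list this short apart from all genes. The peroxiredoxins, the substrates of sulfiredoxin, had differences from -0.10 for Prdx3 to 0.66 for Prdx5. Heat shock chaperones were at least 2-fold higher in IR than in WI for 11 of 12 genes, against 5.78% of all genes, with a median of 2.73. The count was 7 of 12, against 2.94% of all genes, and the median 2.21 once the libraries were scaled to a common sum. Hspa1b (5.56) and Hspa1a (5.41), which share reads, as well as Hspb1 (4.95) and Dnajb1 (3.93) had larger differences than Hmox1.

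**Figure D4:**
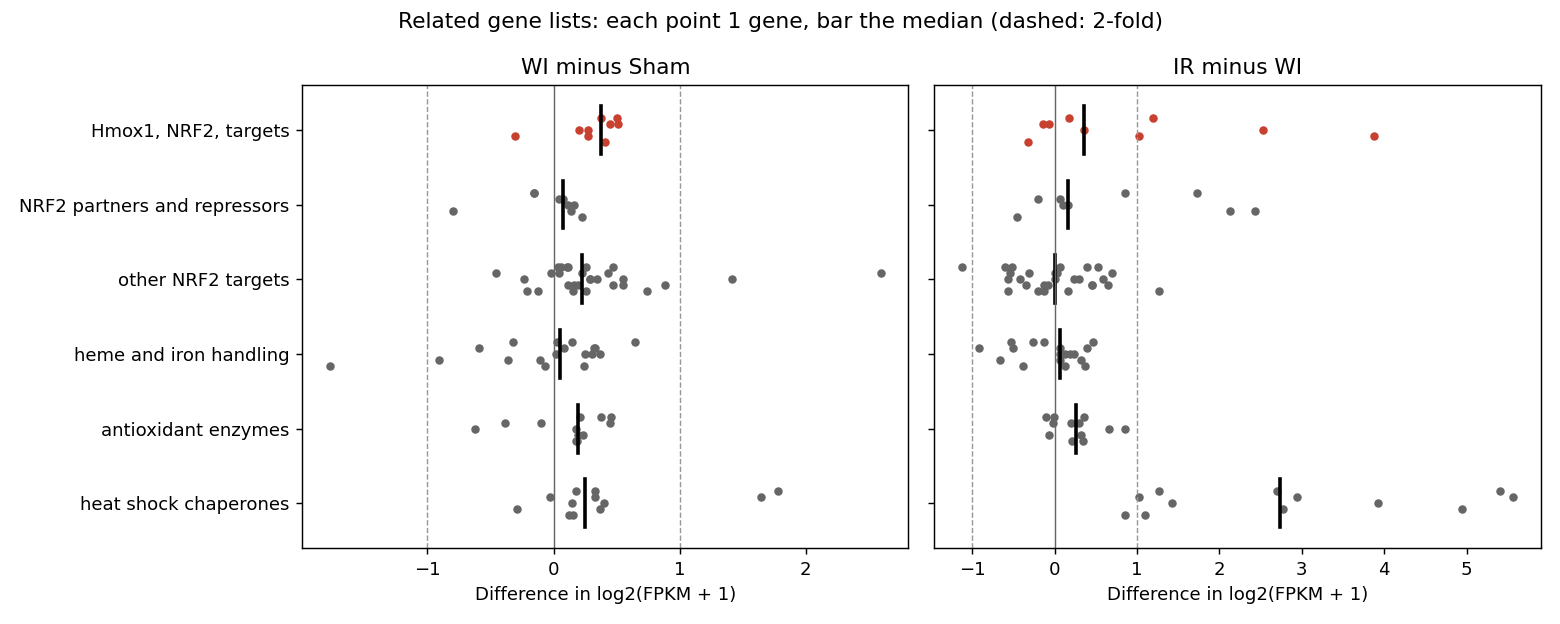
Difference in log2(FPKM + 1) for WI minus Sham (left) and IR minus WI (right, with its own scale), each point 1 gene that passed the filter, black bars the median of a list and dashed lines 2-fold. Between IR and WI the medians are 0.35 for the genes described here, 0.16 for NRF2 partners and repressors, 0.00 for other NRF2 targets, 0.06 for heme and iron handling, 0.25 for antioxidant enzymes and 2.73 for heat shock chaperones.

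The genes whose course over the 3 libraries was most like that of Hmox1 were found by the Euclidean distance between the pairs of differences WI minus Sham and IR minus WI, over the 4593 genes that reached an FPKM of 10 in some library. The nearest 5 were Il1rn, the antagonist of the interleukin 1 receptor (distance 0.123), Tnfrsf12a, the receptor of TWEAK (0.145), Retnlg, a neutrophil product (0.250), Cldn14, a tight junction protein (0.296), and Atf3, a stress-induced transcription factor (0.302). Atf3 had an FPKM of 8.72 in Sham, 5.76 in WI and 114.04 in IR, and Il1rn had 4.65, 3.20 and 61.3. The sixth, named after its values were seen, was the Y-linked Eif2s3y, so with 3 libraries the same shape also arises from the difference in sex-linked genes between them.

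Cell type markers differed between the libraries as well. The lists of markers were summed as FPKM in each library, and in such bulk tissue fewer cells of a type and less RNA per cell cannot be told apart. The 8 monocyte and neutrophil markers found of 9 summed to 31.0 in Sham, 23.2 in WI and 470.5 in IR. Of these 8, 7 were at least 2-fold higher in IR than in WI, against 5.78% of all genes. The 5 erythroid markers, the globins among them, summed to 751 in Sham, 518 in WI and 1976 in IR. Hba-a1 and Hba-a2 were listed at the same locus, as were Hbb-b1 and Hbb-b2. Reads may have been split between such entries, so the 5 are not separate markers. The monocyte and neutrophil sum and the erythroid sum were highest in the library in which Hmox1 was highest. The sums of the hepatocyte and bile duct markers, given below, were also highest there. The sum of the 7 Kupffer cell markers went the other way, with 479 in Sham, 242 in WI and 147 in IR. Of the 7, 6 were lower in IR than in WI by any amount, where 52.4% of all genes were higher. At least 2-fold lower were 2 of them, against 1.43% of all genes. Marco was higher, with 12.6 in WI and 25.3 in IR. Hepatocyte markers summed to 14853 in Sham, 11011 in WI and 16857 in IR with Alb at 0 throughout, the 5 endothelial markers to 111, 80.1 and 92.5, and the 4 stellate cell markers to 142, 100.4 and 103. The endothelial sum was higher in IR than in WI through Lyve1 (2.73 in WI, 33.4 in IR), and the other 4 markers summed to 99.9 in Sham, 77.3 in WI and 59.1 in IR. The hepatocyte difference lay mostly in Apoa1 (4239 in WI, 8799 in IR), and Cps1 was lower in IR (811 and 677). Dcn (91.2 and 95.5) made up most of the stellate cell sum, while Lrat (4.12 and 1.46) and Reln (4.06 and 3.39) were lower in IR. The 4 bile duct markers summed to 2.48, 3.29 and 6.92, and no list other than that of hepatocytes held a gene at 0. The part of these cell types in the levels of Hmox1 and the other genes was not tested.

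**Figure D5:**
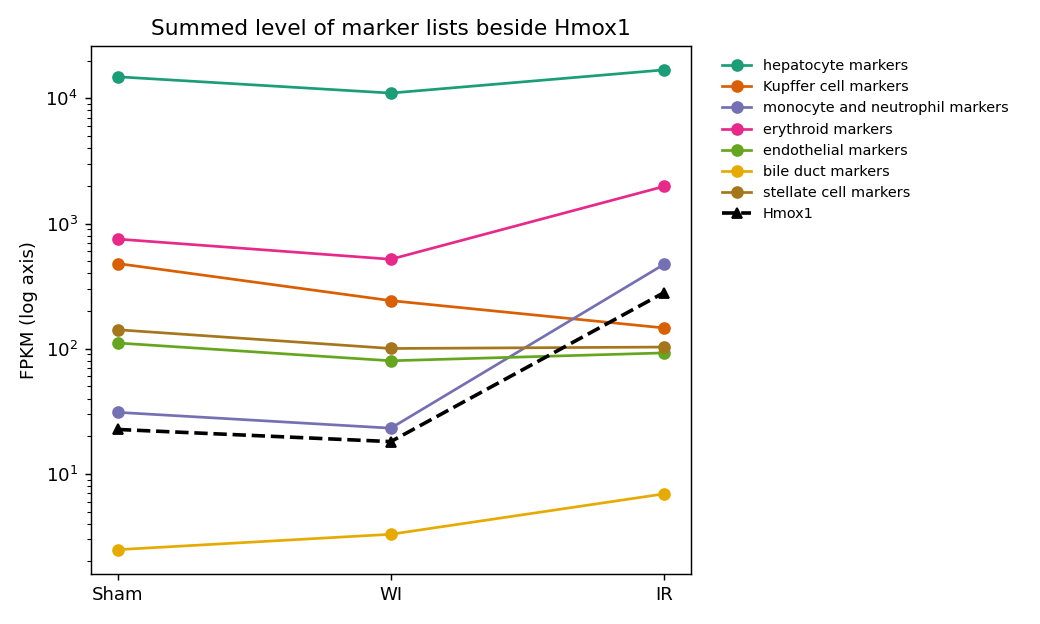
Summed FPKM of each marker list (log axis, solid lines, 1 point per library) beside the FPKM of Hmox1 (dashed) in Sham, WI and IR. The monocyte and neutrophil sum (23.2 in WI, 470.5 in IR) and the erythroid sum (518 and 1976) are higher in IR together with Hmox1 (18.1 and 279.8). The hepatocyte, bile duct, endothelial and stellate cell sums are also higher in IR than in WI, while the Kupffer cell sum is lower (242 and 147). Markers of a list do not all move with its sum, and Cps1 (hepatocyte) and Lrat (stellate cell) are lower in IR than in WI.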

How the data were processed

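Total RNA of mouse liver was sequenced as 1 library per group (Sham, WI, IR). The authors mapped read pairs to mm10 with TopHat2 2.0.9 and deposited, for each of 23361 genes, the FPKM with 95% bounds computed by Cufflinks 2.0.2 (Cuffdiff). The gene annotation is not given in the sources used here.

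From these FPKM values, differences of log2(FPKM + 1) were computed for 3 comparisons over the 10792 genes that reached an FPKM of 1 in some library. The pseudocount of 1 understates the change of low genes. The SE of a difference and the 95% interval of a ratio were propagated from the bounds, taken as 2 SD from the FPKM. Locus starts were moved by 1 to count from 1. With 1 library per group no test was run. Intervals and bounds cover the error of counting and of the authors' model only. The relative worth of 1 fragment came from the commonest ratio of FPKM among genes under 0.05 in both libraries (234 genes at the peak for WI and 176 for IR).

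The 10 genes and all lists were chosen with earlier results of these data known. Named genes are the 10, the members of other lists past 2-fold or at the ends of a range, and the 5 genes nearest to Hmox1. Further genes were named after their values were seen, to describe a role. Promoter windows came from RefSeq in GRCm38.p6. The functions were tested on simulated tables with known changes, which were larger than 2-fold and had a smaller spread than the deposited bounds. That checks the code and not the calls in these data. The work was done in Python 3.11.15 with pandas 2.3.3, numpy 2.4.6 and scipy 1.17.1, and figures were drawn with matplotlib 3.10.9. Alternatives changed the pseudocount, filter, fold, scaling and status.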

Additional observations from a re-analysis of the deposited data

How the results depend on the processing

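Rescaling FPKM to a common sum per library had the widest effect. The median of the 9 genes became -0.17 for IR minus WI and 0.12 for IR minus Sham. In each of these comparisons 2 genes instead of 4 were at least 2-fold higher, against 2.94% and 2.46% of all genes. The other NRF2 targets past 2-fold between IR and WI then numbered 6 of 29, all of them lower in IR. Of all 10939 genes that passed the filter after rescaling, 833 were at least 2-fold lower and 322 higher. Between IR and Sham the other targets past 2-fold still numbered 4, but 1 higher and 3 lower in place of 3 and 1. Of all genes, 269 were then higher and 1110 lower. In a rescaling of further lists that was added after seeing the data, the heat shock chaperones past 2-fold between IR and WI went from 11 to 7 of 12, and the NRF2 partners and repressors stayed at 3 of 9. Hmox1 and Srxn1 kept differences of 3.34 and 1.997 between IR and WI, while Gclc (0.65) and Txnrd1 (0.49) stayed higher and no longer past 2-fold. The larger sum of the IR library lowers every gene in it by construction.

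At a threshold of 4-fold, 2 of the 9 genes were past it in IR against WI and 2 in IR against Sham. The other targets numbered 0 and 1, with 1 between WI and Sham, and all of these were higher. Over the 10792 genes, 175 were at least 4-fold higher and 19 lower in IR against WI. The numbers were 141 and 25 in IR against Sham, and 7 and 17 in WI against Sham. At 1.5-fold the other targets numbered 5 of 29 between IR and WI (3 higher, 2 lower) and 10 between IR and Sham (9 higher, 1 lower). Between WI and Sham they numbered 4, all higher. Of the 10792 genes, 1333 were higher and 799 lower in IR against WI at that threshold. For IR against Sham 1548 were higher and 1024 lower, and for WI against Sham 339 and 461. Pseudocounts of 0.1 and 0.01 moved the difference of Slc7a11 between IR and WI from 0.58 to 2.45 and 4.54. Among the 10 genes, no difference past 2-fold changed sign. Of 102 alternative counts and medians over the 3 comparisons, 89 stayed within 1.5 times the count or within the error of the median. That tally of counts disregards direction, and part of it was fixed in advance. The status setting and the filters of FPKM at least 1 in all 3 libraries or at least 5 in some library left the same 9 genes. Their counts and median could not differ there. The median-ratio factors lay so close to 1 that this setting could move little. The tally is therefore no measure of robustness. No replicate could be left out and no paired analysis was possible because each group has 1 library.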
